A study of Mus musculus with 6 samples.

Results

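The genes of the cytosolic ribosomal proteins, the proteins of the ribosomes that translate nuclear-encoded messenger RNA, were described in cultured airway basal cells of the mouse. They were chosen by symbol alone: the letters Rpl or Rps with a number and an optional a, l, x or y, together with Rplp0, Rplp1, Rplp2 and Rpsa. This gave 89 genes of 56748. By gene annotation and function 77 were core proteins, 31 of the small 40S subunit and 46 of the large 60S subunit. Another 6 were paralogs of core proteins (Rpl3l, Rpl7l1, Rpl10l, Rpl22l1, Rpl39l and Rps27l). The other 6 were annotated as pseudogenes in GENCODE M21 (Rps4l, Rpl6l, Rps3a2, Rps3a3, Rpl32l and Rps12l1). RNA had been sequenced from primary tracheal basal cells of wild-type mice after 4 days in culture. Cells of 3 libraries had received UK-5099, which inhibits the mitochondrial pyruvate carrier. Cells of 3 libraries had received Y-27632 with A8301 and DMH-1, of which A8301 and DMH-1 block TGF-beta and BMP type I receptors. No untreated group was among the samples, and the labels leave unsaid if Y-27632 was present with UK-5099 too, so "higher" and "lower" always mean UK-5099 relative to the 3 inhibitors. Separate animals or cultures are not stated for the replicates either, so the p-values rest on a spread between libraries that may be technical.

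Each ribosome holds the core proteins in fixed proportion, and their genes are expressed at high and similar levels in dividing cells. Their messenger RNAs begin with a short pyrimidine tract, the 5′ TOP motif, through which the kinase mTORC1 and the RNA-binding protein Larp1 govern how much of them is translated and stored. Ribosomal proteins made in excess of ribosomal RNA are degraded, and free Rpl5 and Rpl11, bound to 5S ribosomal RNA, inhibit Mdm2 and so stabilise p53. Basal cells are the stem cells of the airway epithelium, and their keratin Krt5 was abundant in every library (37166 to 126854 normalized counts).

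Most ribosomal protein genes differed little between the groups, and those that passed the test were mostly slightly higher with UK-5099, a direction that reversed to more lower than higher when each library was centred on its median gene, though not when UK-5099 replicate 3 was also left out. Levels are normalized counts, gene reads divided by a size factor per library, and a gene was called at an adjusted p under 0.05 in limma over all genes tested. Of the 85 members whose mean reached 10 normalized counts, 26 were higher and 3 lower, with a median log2 fold change of 0.11. Over all 15704 genes tested 53.8% were called, 27.2% higher and 26.6% lower, with a median log2 fold change of 0.00. The members called were thus fewer than the background in total (34.1%), close to it for higher genes (30.6%) and far fewer for lower ones (3.53%). Groups did not overlap for 27 members, 31.8% of those tested and 22 of them higher, against 60.8% of all genes. Centring gave 5 higher and 9 lower members and a median of 0.02, against 21.5% higher and 33.5% lower over all genes, whose share of higher calls fell from 50.6% to 39.1%. Centring without UK-5099 replicate 3 gave 37 higher and 12 lower members, against 3582 and 5600 of all 15704 genes. Upper-quartile rescaling gave 36 and 2, against 4695 and 3917 of all genes. With 1 library left out the median ran from 0.06, without UK-5099 replicate 2, to 0.17, without UK-5099 replicate 3. The largest called rise was 1.30-fold, for Rps2 (log2 fold change 0.38), and 40.1% of all genes tested had a larger change than that in either direction.

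**Figure D1:**
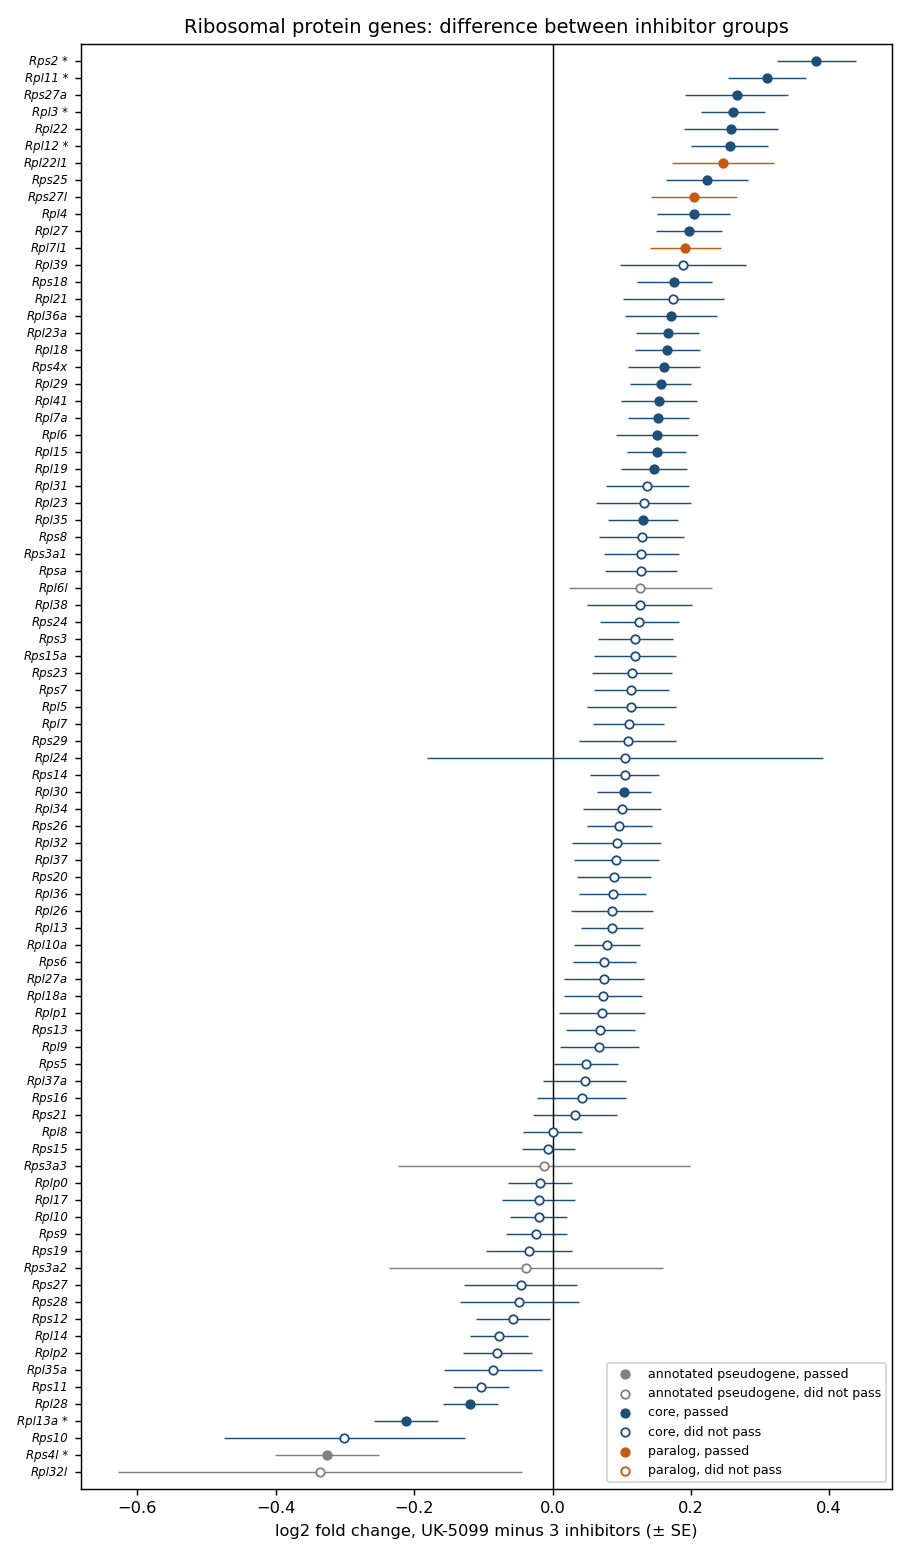
Log2 fold change with its standard error (limma, 3 libraries per group) for 84 of the 85 ribosomal protein genes tested, in order, coloured by class; filled points passed the test at an adjusted p under 0.05 and an asterisk marks the 6 called in every setting run. Over all 85 genes estimates lay above 0 for 65 and 26 passed upward, a count that was 5, with 9 downward, after centring on the median, and 37, with 12 downward, after centring without UK-5099 replicate 3.

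Calls that held under all 22 alternative settings were those of Rps2, Rpl11, Rpl12 and Rpl3, which were higher, and of Rpl13a and Rps4l, which were lower. Rps2, a 40S protein near the entry of the messenger RNA channel, stood at 43441, 38636 and 43195 normalized counts with UK-5099 and at 32964.5, 32742 and 30393 with the 3 inhibitors. All UK-5099 values lay above all others, and the log2 fold change was 0.38 ± 0.06 (SE; limma, adjusted p = 0.000142; 0.23 to 0.44 over the settings). Rpl11, a partner of 5S ribosomal RNA, stood at 17238.5, 16968 and 15028 against 13238, 13819 and 12614 normalized counts. Its groups did not overlap either (0.31 ± 0.06, SE; limma, adjusted p = 0.000685; 0.22 to 0.37 over the settings). Rpl12, which lies at the base of the stalk that recruits elongation factors, stood at 27305, 27241 and 24309.6 normalized counts with UK-5099 and at 22464, 22691 and 20811 with the 3 inhibitors (0.26 ± 0.06, SE; limma, adjusted p = 0.00216). Rpl3, a protein close to the peptidyl transferase centre, stood at 34947, 34919 and 32733 against 29106, 29019.8 and 27475 normalized counts (0.26 ± 0.05, SE; limma, adjusted p = 0.000548). In Rpl11, Rpl12 and Rpl3, but not in Rps2, UK-5099 replicate 3 was the lowest of its group.

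Among the lower genes, Rpl13a, a 60S protein also known from the GAIT complex of interferon-treated human cells, stood at 1097, 1108 and 1097 normalized counts with UK-5099 and at 1252, 1295 and 1278 with the 3 inhibitors. Values within each group were nearly equal and the groups lay apart (-0.21 ± 0.05, SE; limma, adjusted p = 0.00215; -0.34 to -0.18 over the settings). Its level was low for a core gene, 1951 normalized counts per kilobase of coding sequence against a median of 32005. Rps4l, annotated as a pseudogene and similar to the 40S gene Rps4x, stood at 278, 282 and 294 against 359, 362 and 351 normalized counts (-0.33 ± 0.08, SE; limma, adjusted p = 0.00311). The third lower gene, Rpl28, a 60S protein of eukaryotes, stood at 14346, 14326 and 14286 against 15807, 15870.0 and 14986 normalized counts. Its groups did not overlap (-0.12 ± 0.04, SE; limma, adjusted p = 0.0253), but Rpl28 lost its call when UK-5099 replicate 1 (adjusted p = 0.0708) or 3-inhibitor replicate 1 or 2 was left out (adjusted p = 0.1 and 0.118; 6.77e-05 to 0.118 over the settings).

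**Figure D2:**
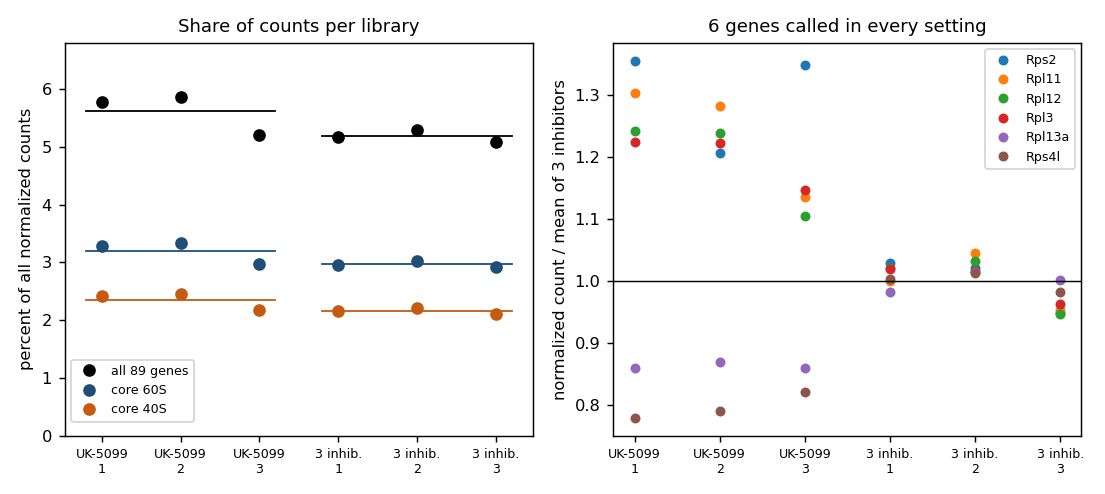
Left, the share of all normalized counts taken by all 89 ribosomal protein genes and by the core 60S and 40S proteins in each library (percent; points are libraries, lines are group means). Right, the 6 genes called in every setting, as the normalized count of each library divided by the mean of the 3-inhibitor libraries: UK-5099 values of Rps2, Rpl11, Rpl12 and Rpl3 lie above 1, those of Rpl13a and Rps4l lie below it, and the total share of UK-5099 replicate 3 (5.20%) lies inside the range of the 3 inhibitors (5.08% to 5.30%).

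Start-site sequences are shown for Rps2, Rpl11, Rpl12 and Rpl13a, 4 of the 6 genes called in every setting. Rpl28, the other lower core gene, and Rps6, the substrate of S6 kinase, are shown too. The purpose is to show pyrimidine runs near the annotated start. Each is the gene strand from 30 bases before the annotated start to 30 from it onward, from RefSeq on GRCm38.p6, and capitals mark the longest run of pyrimidines that opens with a C and begins within 20 bases of the start. A marked run is not shown to be the TOP motif, which opens the message. The run begins at base 15 in Rpl11, 5 in Rps2, 3 in Rpl12 and Rpl13a, -1 in Rps6 and -2 in Rpl28.
Rps2 (chr17:24720033-24720092, + strand): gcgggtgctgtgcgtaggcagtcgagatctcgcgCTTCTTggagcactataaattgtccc
Rpl11 (chr4:136053364-136053423, - strand): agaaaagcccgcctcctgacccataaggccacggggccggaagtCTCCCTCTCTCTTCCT
Rpl12 (chr2:32961682-32961741, + strand): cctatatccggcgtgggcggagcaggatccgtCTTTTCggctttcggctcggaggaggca
Rps6 (chr4:86857338-86857397, - strand): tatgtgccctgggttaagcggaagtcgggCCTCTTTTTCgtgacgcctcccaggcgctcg
Rpl28 (chr7:4792935-4792994, + strand): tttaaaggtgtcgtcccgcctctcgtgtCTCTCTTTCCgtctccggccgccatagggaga
Rpl13a (chr7:45128716-45128775, - strand): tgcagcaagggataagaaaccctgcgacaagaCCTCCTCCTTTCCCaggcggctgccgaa

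All 6 genes shown held such a run. It is common among members and among all genes, so these 6 cannot show if it differs between higher and lower members. Of the 64 members in the promoter table, 52 (81.25%) had a C followed by at least 4 pyrimidines that began within 20 bases of the start, against 53.3% of 27025 genes. Over the 300 bases from 250 before to 50 after the start, searched on both strands, CCGGAAG, letters bound by ETS factors, were found in 26 members (40.6%, against 9.93% of all genes). GGGCGG, the GC box of Sp1, was found in 39 (60.9%, against 38.2%), AAGATGGC, a YY1 motif, in 6 (9.38%, against 3.19%) and TATAAA in 8 (12.5%, against 15.7%). The reverse complement of CCGGAAG opens with a C and 4 pyrimidines, so those 2 searches can match the same bases.

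Core proteins of the 40S subunit and of the 60S subunit had nearly the same median, 0.10 and 0.11 on the log2 scale. In the 40S subunit 6 of 31 genes were higher and 0 lower (limma; 9 and 1 at an unadjusted p under 0.05, and 9 and 1 by limma-voom), and in the 60S subunit 17 of 46 were higher and 2 lower, again against 27.2% and 26.6% of all genes, and centring on the median reversed the balance over all members unless UK-5099 replicate 3 was left out as well. Besides Rps2, the higher 40S genes included Rps27a, Rps25, Rps18 and Rps4x. Rps27a, which encodes ubiquitin fused to a 40S protein, stood at 19979.7, 17758 and 17551 against 16415, 16144 and 13515 normalized counts. The groups did not overlap (0.27 ± 0.07, SE; limma, adjusted p = 0.00983), but leaving out UK-5099 replicate 1 ended the call (adjusted p = 0.0608; 0.00111 to 0.127 over the settings). Rps25, needed in mammalian cells for translation from some viral internal entry sites, stood at 14696.5, 15488 and 13173 against 12352.5, 12879.9 and 11846 normalized counts, without overlap (0.22 ± 0.06, SE; limma, adjusted p = 0.00700). Its call ended with centring (adjusted p = 0.0726) and with limma lacking the trend (adjusted p = 0.0576), and over the settings its adjusted p ran from 1.89e-05 to 0.0726.

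Rps6, the 40S phosphoprotein whose phosphorylation reports S6 kinase activity, stood at 32657, 32110.3 and 30819 with UK-5099 and at 30424, 31105.5 and 29218 with the 3 inhibitors. The groups overlapped and Rps6 was not called (0.08 ± 0.04, SE; limma, adjusted p = 0.184), although without UK-5099 replicate 3 it was (0.10, adjusted p = 0.0322; 0.0322 to 0.871 over the settings). Rpsa, also known as the laminin receptor, stood at 39743, 39588.5 and 35611 against 35017, 35877.5 and 34216 normalized counts. It missed the threshold (0.13 ± 0.05, SE; limma, adjusted p = 0.0586) and passed it without UK-5099 replicate 3 (adjusted p = 0.000482; 0.000482 to 0.551 over the settings). It also passed with upper-quartile or total-count scaling, robust limma and limma-voom (adjusted p = 0.0283, 0.0461, 0.0335 and 0.0311). Rps19, the gene most often mutated in human Diamond-Blackfan anaemia, stood at 12208, 12482 and 10610.5 against 12418.5, 12313 and 11344 normalized counts. Its groups overlapped (-0.03 ± 0.06, SE), and the estimate became 0.04 without UK-5099 replicate 3.

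In the 60S subunit the higher genes after Rpl11, Rpl3 and Rpl12 were led by Rpl22, an RNA-binding protein whose loss in mice blocks a lineage of T cells. It stood at 7909.6, 8183 and 6896 normalized counts with UK-5099 and at 6795, 6499 and 5907 with the 3 inhibitors. These groups did not overlap (0.26 ± 0.07, SE; limma, adjusted p = 0.00687), and among the settings only limma without its trend ended the call (adjusted p = 0.0619, the highest over the settings). Rpl4, Rpl27, Rpl36a, Rpl23a, Rpl18, Rpl29, Rpl41, Rpl7a, Rpl6, Rpl15, Rpl19, Rpl35 and Rpl30, named to complete the list, were higher by 0.10 to 0.20 on the log2 scale. Rpl5, the partner of Rpl11 in the 5S particle, was not called (30199, 32171 and 26656.5 against 27829, 28032 and 26211 normalized counts; 0.11 ± 0.06, SE; limma, adjusted p = 0.160). Its groups overlapped through UK-5099 replicate 3, without which it was called (0.19, adjusted p = 0.00096; 0.00096 to 0.765 over the settings).

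The stalk proteins Rplp0, Rplp1 and Rplp2, which carry the binding sites for elongation factors, showed 0 calls in limma, where 53.8% of all genes were called. They also showed 0 at an unadjusted p under 0.05 and 0 by limma-voom. Rplp0, widely used as a reference gene, stood at 64641, 62658 and 61641 normalized counts with UK-5099 and at 63925, 64424.5 and 62933 with the 3 inhibitors. The groups overlapped, and the log2 fold change was -0.02 with a 95% interval from -0.12 to 0.08 (limma, adjusted p = 0.771; 0.0233 to 0.956 over the settings). Rplp0 was called lower with the length trend removed (-0.11, adjusted p = 0.0301) and, without UK-5099 replicate 3, with either the trend removed or centring (adjusted p = 0.0233 and 0.0247). Rplp1 had a log2 fold change of 0.07 ± 0.06 (SE; limma, adjusted p = 0.361) and was called as higher without UK-5099 replicate 3 (adjusted p = 0.00431; 0.00431 to 0.899 over the settings). For Rplp2 it was -0.08 ± 0.05 (SE; limma, adjusted p = 0.204; 0.00165 to 0.483 over the settings), and centring made it a lower gene (-0.17, adjusted p = 0.0137).

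All 3 paralogs with enough reads to be tested were higher, against 27.2% of all genes, and all 3 calls ended when libraries were centred on the median (adjusted p = 0.0874 to 0.128). Rpl22l1, which can replace Rpl22, stood at 3044, 2998 and 2441 against 2399, 2419.95 and 2296 normalized counts, without overlap (0.25 ± 0.07, SE; limma, adjusted p = 0.0142). The call of Rpl22l1 was lost when UK-5099 replicate 1 (adjusted p = 0.0785) or 3-inhibitor replicate 3 (adjusted p = 0.0622) was left out, and its adjusted p ran from 3.12e-06 to 0.0874 over the settings. Rpl7l1, a factor of 60S assembly, stood at 3017, 3067 and 2763 against 2651, 2615 and 2473 normalized counts (0.19 ± 0.05, SE; limma, adjusted p = 0.00712; 0.000187 to 0.0949 over the settings), whereas Rpl7 was not called (0.11 ± 0.05, SE; adjusted p = 0.0919) except with upper-quartile rescaling (adjusted p = 0.0454) and without UK-5099 replicate 3 (adjusted p = 0.00125), where 0.862 was the highest over the settings. Rps27l, a target of p53, stood at 3349.8, 3308 and 2833 against 2766, 2799.75 and 2650.2 normalized counts. It was higher (0.20 ± 0.06, SE; limma, adjusted p = 0.0148), though not without UK-5099 replicate 1 (adjusted p = 0.0787) or 3-inhibitor replicate 3 (adjusted p = 0.067; 2.3e-05 to 0.128 over the settings), and Rps27 was not called (-0.05 ± 0.08, SE; adjusted p = 0.668). The difference between a paralog and its partner was not tested.

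Per kilobase of coding sequence the paralogs were less abundant than their partners over the 6 libraries: 7102 normalized counts per kilobase for Rpl22l1 against 18311 for Rpl22, 3746 for Rpl7l1 against 34056 for Rpl7, and 11711 for Rps27l against 34891 for Rps27. Rpl10l and Rpl39l, paralogs known from the testis, and the pseudogene Rps12l1 had 0 reads in every library, which allows up to 3 reads in each (counting error only). Rpl3l, the form of heart and skeletal muscle, had 2.44 normalized counts in UK-5099 replicate 3 and 1.03 in 3-inhibitor replicate 1 and 0 elsewhere. Of the 5 pseudogene-annotated members tested, Rps4l alone was called, where 53.8% of all genes were. The others had standard errors of 0.10 (Rpl6l) to 0.29 (Rpl32l), against a median of 0.06 over members. Their UK-5099 replicate 3 differed from the mean of replicates 1 and 2 by -0.43 (Rpl6l) to -1.15 (Rpl32l) on the log2 scale.

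On the X chromosome lie Rpl10, Rpl36a, Rpl39 and Rps4x. Rps4x stood at 27705, 27895 and 25104 against 23564, 25082 and 23458 normalized counts (0.16 ± 0.05, SE; limma, adjusted p = 0.0203). Leaving out UK-5099 replicate 1 or 2 (adjusted p = 0.0948 and 0.0611) or 3-inhibitor replicate 1 or 3 (adjusted p = 0.0807 and 0.0725) ended the call, and the adjusted p ran from 0.000195 to 0.26 over the settings. Rpl39, which lines the exit tunnel, stood at 8058, 8472 and 6266 against 6678, 6885 and 6285 normalized counts and was not called (0.19 ± 0.09, SE; limma, adjusted p = 0.102), but without UK-5099 replicate 3, the lowest of all 6 values, it was (adjusted p = 9.53e-06, the lowest over settings that reached 0.382). Rpl10, the last protein to join the 60S subunit, had a log2 fold change of -0.02 ± 0.04 (SE; limma, adjusted p = 0.710) and became a lower gene with centring (-0.11, adjusted p = 0.0374; 0.00711 to 0.989 over the settings). Among 2 sex-linked genes, Xist was higher with UK-5099 (23136 to 26012 against 14144 to 14392 normalized counts) and Ddx3y lower (409 to 435 against 707 to 775). The part of sex chromosome makeup in the values of the 4 X-linked members was not tested.

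How many members were called rested on single libraries, above all UK-5099 replicate 3. It had 19909589 reads, the fewest of a range that reached 27037795. In it 81 of 85 members were lower than in the mean of UK-5099 replicates 1 and 2, with a median difference of -0.17 on the log2 scale against 0.03 over all genes. Without it 63 members were higher and 3 lower, against 29.3% and 28.8% of all genes. Leaving out UK-5099 replicate 1 or 2 gave 10 or 17 higher members, and leaving out 3-inhibitor replicate 1, 2 or 3 gave 18, 21 or 14, with 2 to 4 lower in each case. In these fits 3716 to 4152 of all 15704 genes were higher and 3603 to 4050 lower. The summed share of the 89 genes in all normalized counts shows the same library: it was 5.77%, 5.87% and 5.20% with UK-5099 and 5.17%, 5.30% and 5.08% with the 3 inhibitors. The means were 5.61 ± 0.36% and 5.18 ± 0.11% (SD, n = 3 each), and the groups overlapped. In bulk RNA such a share cannot tell fewer cells of a type from less RNA per cell.

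**Figure D3:**
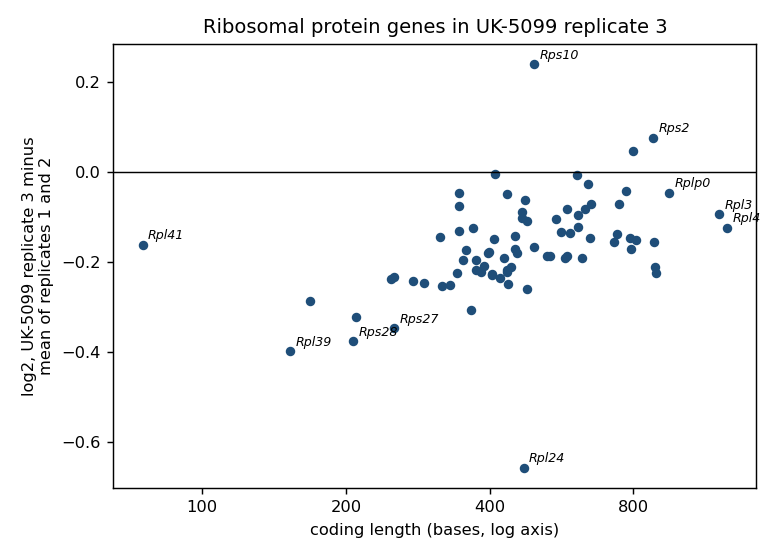
Difference of UK-5099 replicate 3 from the mean of UK-5099 replicates 1 and 2 (log2) against coding length (bases, log axis) for the 80 protein-coding ribosomal protein genes tested. Most points lie below 0, and those of short genes such as Rpl39 and Rps28 lie lower than those of long ones such as Rpl3 and Rpl4, with Rpl41 and the sparsely counted Rpl24 and Rps10 away from the trend.

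The deficit of UK-5099 replicate 3 was larger in short members. Over 80 coding members its difference rose with coding length (Pearson's r = 0.43 with log2 length, Spearman's coefficient = 0.55, across genes of the same 3 libraries, which are not independent replicates). The 12336 protein-coding genes tested with a known length showed a like order: the median difference was -0.14 for 90 genes with transcripts of at most 500 bases, -0.07 for 677 genes of more than 500 and up to 1000 bases, and 0.07 for 3863 genes over 4000 bases. Subtracting a trend on transcript length in each library left 14 members higher and 7 lower, against 27.7% and 27.3% of all genes, and a median of 0.04. Of the 26 and 3 calls, 13 higher and all 3 lower ones were among these. The part of this library's lower depth in the pattern was not tested.

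**Figure D4:**
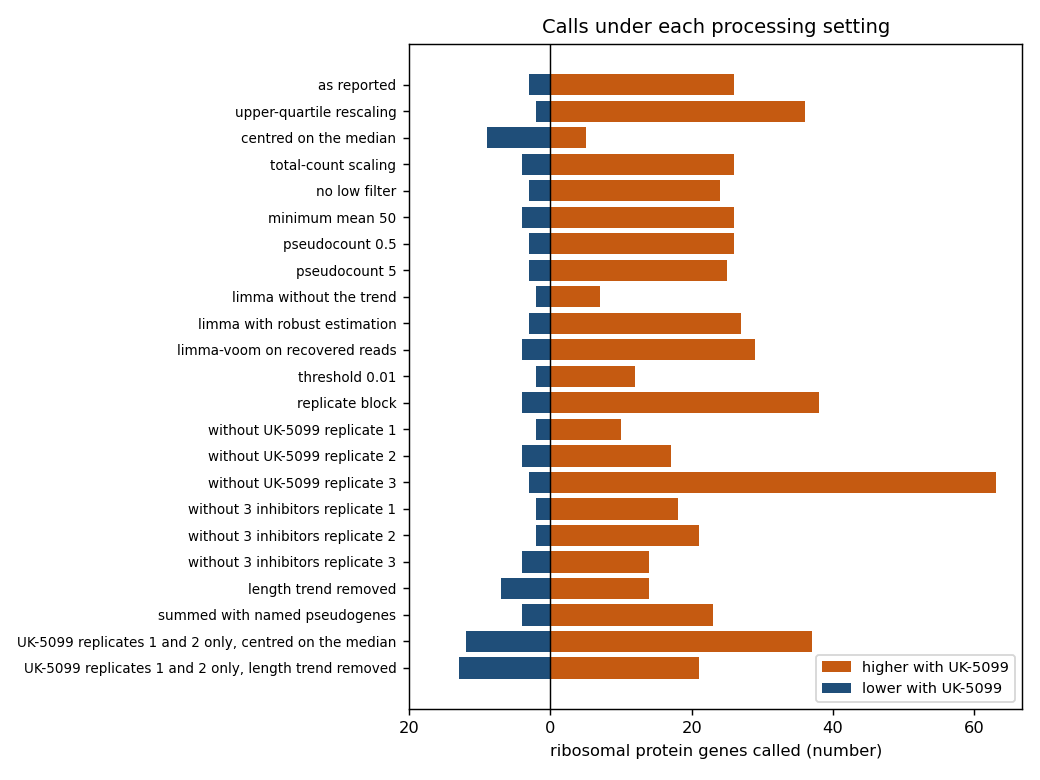
Number of ribosomal protein genes called higher (right) and lower (left) with UK-5099 under the reported setting and the 22 alternatives. Higher calls run from 5 with centring, where 9 lower calls outnumber them, to 63 without UK-5099 replicate 3.

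Near-identical copies make several levels uncertain, because the sources used here do not state how reads matching more than 1 place were counted. The table listed 322 pseudogenes named after a member (a symbol followed by -ps), of which 280 had reads, and together they equalled 17.2% to 21.2% of the members' counts per library. Their sum exceeded the gene itself for Rps10 (48.1 times), Rpl35a (18.9 times), Rpl21 (2.25 times), Rpl10 (1.68 times), Rps12 (1.11 times) and Rpl17 (1.10 times). Rps10 and Rpl24, at means of 85.8 and 51.6 normalized counts, were the core genes with the fewest reads, where the median core gene had 32005 normalized counts per kilobase of coding sequence (quartiles 25448 and 38725). Rpl24 had no named pseudogene in the table, and its level of 109.5 per kilobase stood lowest of all core genes. At the other end Rpl41, whose coding sequence is 75 bases long, had 365251 per kilobase.

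In 48 families with at least 50 normalized counts in both, the log2 ratio of the gene between groups and that of its summed pseudogenes had the same sign in 39 (Pearson's r = 0.59, Spearman's coefficient = 0.63, across families within the same 6 libraries). For Rps2 the pseudogene sum was 0.512 of the gene, and for Rpl3 it was 0.126, so their levels carry this uncertainty. Rpl11 had no named copy, and the named copies of Rpl12 summed to 0.00157 of the gene. Copies under other symbols were not searched for, so sums of copies given here may miss some. Few named copies did not always go with a usual level. Those of Rpl13a summed to 0.0182 of the gene, which had 1951 normalized counts per kilobase of coding sequence, where the lower quartile of the core genes was 25448. Rpl24 had none. Adding the pseudogenes to each gene gave 23 higher and 4 lower members, against 4310 and 4212 of 15524 genes. The members annotated as pseudogenes added further copies, Rpl6l bringing the sum for Rpl6 to 10.9% and Rps3a2 and Rps3a3 that for Rps3a1 to 9.84%. Among the 28 core genes for which all these copies summed to under 1% of the gene, 8 rose (28.6%, against 27.2% of all genes) and 0 fell (against 26.6%) in limma, with 9 and 0 at an unadjusted p under 0.05 and by limma-voom, and the median was 0.10.

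**Figure D5:**
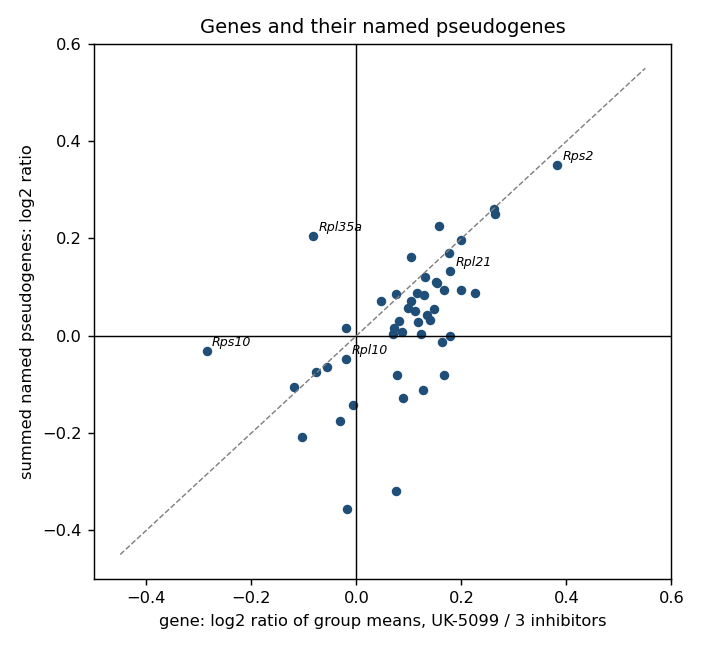
Log2 ratio of group means (UK-5099 over 3 inhibitors) for a ribosomal protein gene (x axis) and for the sum of its named pseudogenes (y axis) in 48 families with at least 50 normalized counts in both; the dashed line marks equal ratios. Both ratios have the same sign in 39 families, with Rps2 at the upper right, and Rpl35a, whose pseudogenes hold 18.9 times its counts, has opposite signs.

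Genes that act on or beside these proteins are given as lists, to be read against the 27.2% of all genes that were higher and the 26.6% that were lower. Of 12 tested chaperones and importers of ribosomal proteins 10 were higher and 0 lower (median 0.27; also 10 and 0 at an unadjusted p under 0.05 and by limma-voom). Among them were Tsr2, the escort of Rps26, at 358 ± 1.74 against 185 ± 13.2 normalized counts (SD over 3 libraries; 0.95 ± 0.09 on the log2 scale, SE; limma, adjusted p = 3.51e-06), Heatr3, which escorts Rpl5 (0.57), and the importins Ipo5 (0.39) and Kpnb1 (0.31). Of 82 mitochondrial ribosomal proteins 48 were higher and 1 lower (median 0.21). Among 35 initiation factors 20 were higher and 5 lower (median 0.13), including, by smallest adjusted p, Eif6, which keeps 60S subunits from joining 40S (2932 ± 65.2 against 1937 ± 64.1 normalized counts, SD, n = 3; 0.60), Eif2b3 (0.87) and Eif2s1 (0.47), with Eif3f lower (-0.44). Elongation and release factors were higher in 7 of 10 cases (median 0.24), such as Eif5a (0.50), the ribosome recycler Abce1 (0.49) and Gspt1 (0.41). Eef2, which moves the ribosome along, was lower (-0.35), and the summed counts of the list were lower too (395043 to 401714 against 425081 to 445251) through the abundant Eef1a1 (-0.16) and Eef2. All named values passed the test in limma.

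Other messages of the TOP class numbered 12 higher and 4 lower of 23 (median 0.11), again against 27.2% and 26.6% of all genes, Hnrnpa1 (0.81), Snhg1 (0.50) and Npm1 (0.45) being higher. The ribosomal proteins on the list of symbols that the rule leaves out, such as Fau, Rack1 and Rpl36al, showed 0 calls in limma, 0 at an unadjusted p under 0.05 and 0 by limma-voom. In the mTORC1 arm 5 of 18 genes were higher and 9 lower (median -0.02): the activator Rheb was higher (0.48), and the inhibitors Deptor (-0.84) and Tsc2 (-0.47) and the translational repressor Eif4ebp2 (-0.42) were lower. Others of the same roles, named after their values were seen, went the other way: the inhibitors Sesn1 (0.48) and Ddit4 (0.27) and the repressor Eif4ebp1 (0.17) were higher, and the kinase Mtor was lower (-0.20). Of 8 genes that rescue or police stalled ribosomes, Ltn1 was higher (0.25) and Zfp598 (-0.29), Edf1 (-0.22) and Ascc3 (-0.18) lower. The call of Ascc3 ended once the length trend was removed (adjusted p = 0.483; 6.56e-05 to 0.812 over the settings). Beside Rpl11, the 6 genes of the 5S particle and p53 held Mdm2 (-0.35) and Cdkn1a (-0.58), both lower. Trp53 (0.09 ± 0.04, SE; limma, adjusted p = 0.105) was not called.

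Markers of cell types moved alongside. Of 8 basal markers 6 passed upward and 1 downward, where 27.2% and 26.6% of all genes did. Krt5 (1.59), Krt14 (2.50), Trp63 (0.77), Pdpn (0.72), Dlk2 (0.58) and Itga6 (0.39) were higher, Ngfr was lower (-2.20) and Krt15 was not called (-0.07). Summed secretory markers ranged from 1119 to 1738 normalized counts with UK-5099 and from 4631 to 5006 with the 3 inhibitors, with Cyp2f2 (-1.79), Scgb1a1 (-2.19) and Muc5b (-1.79) lower in the 3 of 6 tested. Multiciliated markers summed to 214 to 231 against 149 to 204, with Rsph1 (0.81) and Cfap43 (0.63) higher of 4 tested. The others tested, Tppp3 (-0.15) and Ccdc39 (-0.16), were not called. Foxj1 (0 to 1.02 against 0.894 to 5.15 normalized counts) and Dnah5 (1.86 to 6.10 against 0.894 to 1.83) had too few reads to be tested and differed in opposite directions. Endothelial markers summed to 51.8 to 65.9 against 157 to 188, nearly all of it from Tie1 (-2.68) and Vwf (-1.33), both lower. Pecam1 (0 to 3.71 against 0 to 1.79 normalized counts) and Kdr (0 against 0 to 0.894) had too few reads to be tested. Cdh5 was at 0 throughout. Leukocyte markers summed to 14.6 to 21.3 against 31.1 to 49.1. Means of Lyz2 (0.309 against 13.7), Cd79a (0 against 5.39) and Cd52 (7.39 against 12.9) were lower, and that of Coro1a (8.56 against 5.66) was higher. Cd52, the only one tested, was not called (limma, adjusted p = 0.159). Ptprc and Cd3e stood at no more than 1.03 and 2.68 in any library. Fibroblast markers summed to 6.5 to 14.6 against 8.25 to 10.05, with Col1a2, Col3a1 and Lum at 0 in every library. The part of cell type makeup in the ribosomal protein values was not tested.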

How the data were processed

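The deposited table gives, for 6 libraries, a measure other than raw reads: log2 of gene counts scaled by the authors with 1 size factor for each library, a text mark standing for a count of 0. HISAT2 2.1.0, DESeq2 1.36.0 and the build GRCm39 are named by the submitters' processing notes, without roles; for the counting tool and the annotation, the sources used here give no name. Values were raised to normalized counts. Between 99.988% and 99.992% of nonzero values per library were within 0.02 of whole reads, 19909589 to 27037795 per library. Log2(normalized count + 1) of 15704 genes with a mean of at least 10 was modelled in R 4.3.3 with limma 3.58.1 (trend, two-sided, Benjamini-Hochberg, threshold 0.05, no covariates). The steps were tested on simulated data. Limma-voom on recovered reads, other scalings, filters, pseudocounts, a replicate block and each library left out were alternatives, and removal of a length trend, addition of pseudogenes and combinations without UK-5099 replicate 3 were chosen after seeing the data.

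Members and gene lists were chosen with earlier results of these data known, so a count over a list is a description. Named genes were the 8 largest rises and falls among called members whose groups did not overlap, paralogs and their partners, 10 further proteins of known roles, up to 4 called genes per list by smallest adjusted p, and basal markers; others are named to complete a list or for their level, after their values were seen. The values of a few genes counted in the totals are not reported here. Gene lengths and classes came from GENCODE M21 and promoters from RefSeq GRCm38.p6, matched by identifier or symbol, because no GRCm39 genome was used here. Python 3.11.15, pandas 2.3.3, numpy 2.4.6 and matplotlib 3.10.9 were used.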

Additional observations from a re-analysis of the deposited data

How the results depend on the processing

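Higher members numbered 26 as reported, 5 with centring on the median, 7 without the limma trend, 12 at a threshold of 0.01, 14 with the length trend removed, 36 with upper-quartile rescaling and 10 to 63 with 1 library left out, and without UK-5099 replicate 3 they numbered 37 when also centred and 21 when also freed of the length trend. Lower members numbered 3 as reported, 9 with centring, 7 with the length trend removed, 12 and 13 without UK-5099 replicate 3 when also centred or freed of the length trend, and 2 to 4 with 1 library left out. The median of the members, 0.11, was 0.0166 with centring and 0.063 to 0.172 with 1 library left out. Estimates changed sign for Rpl10 (0.00934) and Rplp0 (0.0114) with upper-quartile rescaling, for Rps27 (0.0694, where leaving out 1 library gave -0.14 to 0.0694) and Rps19 (0.039, in a range from -0.0782) without UK-5099 replicate 3, for Rplp1 (-0.0175) and Rps6 (-0.0137) with centring, for Rps6 with the length trend removed (-0.0156, and -0.0387 without UK-5099 replicate 3), and for Ascc3 with both (0.0117). At the threshold of 0.01 fewer calls follow from its construction; the cause of the other changes was not tested. Limma-voom on recovered reads gave 29 higher and 4 lower members.

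Deviations of same-numbered libraries of the groups correlated at -0.02, 0.12 and -0.09, and those of differently numbered ones at -0.20 to 0.19. The members' share of all counts, however, ranked alike by number in both groups. It was 5.77%, 5.87% and 5.20% with UK-5099 and 5.17%, 5.30% and 5.08% with the 3 inhibitors. The labels do not say what a shared number means, so the reported fit modelled no pairing, and these values cannot settle if one exists. With the replicate number as a block, 38 members were higher and 4 lower, and 8423 genes were called in all against 8449. With 3 libraries a group, the smallest difference called among members was 0.10 on the log2 scale, and their median standard error was 0.06 against 0.09 over all genes.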
